A study of Mus musculus with 6 samples.

Results

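The 10 genes described here serve antigen presentation by MHC class II and the dendritic cells of skin: the class II chains H2-Aa, H2-Ab1 and H2-Eb1, their chaperone Cd74, the peptide editor subunits H2-DMa and H2-DMb1, the class II transactivator Ciita, the Langerhans cell lectin Cd207, and the costimulators Cd80 and Cd86. They were taken by name, and each is represented by its annotated array probe with the highest mean signal. They are 10 of the 19057 genes named on the array, and all 10 were among the 11999 genes tested. Testing required a detection p under 0.01 on 1 array or more.

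C57BL6/129Sv mice gave RNA of back skin or of skin tumours, with 1 sample on each of 6 arrays. The labels give an age of 8 weeks, which cannot be that at sampling for the mice painted over 18 to 20 weeks. SKO DMBA skin (Sting -/-, 2 arrays) and WT tumours (Sting +/+, 2 arrays) came from mice painted once a week with 10 µg of the carcinogen DMBA in 100 µl acetone, over 18 to 20 weeks. SKO acetone skin (Sting -/-, 1 array) and WT acetone skin (Sting +/+, 1 array) came from mice given 100 µl of acetone alone. STING is the adaptor that passes the signal of DNA in the cytosol to interferon and NF-κB responses. The labels neither describe the allele construct nor say that each array came from a separate mouse, so the p-values below reflect only how far these samples differ, a spread that may be technical. All DMBA arrays of WT mice are tumours and all those of SKO mice are skin, so genotype and kind of tissue cannot be told apart in the comparison between them.

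SKO DMBA skin 2 had the most detected probes, 19628, and WT tumour 1 the fewest, 16086. Precision is limited by the small number of arrays. Sting1, the targeted gene, gave signals of 108.5 and 99.7 in SKO DMBA skin and 91.7 in SKO acetone skin, against 85.7 and 155.8 in WT tumours and 144.5 in WT acetone skin. These signals overlap between the genotypes, and WT tumour 1 was the lowest. Whether the probe falls in the deleted stretch is not given, so it does not check the labels, and the groups carry their labelled names. WT tumour 1 stood apart from the other arrays: 8 of 10 skeletal muscle genes and 6 of 8 adipocyte genes were undetected there, and 0 and 2 of them in WT tumour 2. With undetected signals at the array's lowest detected level, the muscle median stood at -7.50 on the log2 scale relative to WT acetone skin in WT tumour 1, a bound, and at -2.76 in WT tumour 2. For the adipocyte genes these medians were -4.17 in WT tumour 1 and -3.08 in WT tumour 2, also bounds.

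MHC class II molecules are pairs of an alpha and a beta chain that show peptides from engulfed proteins to CD4+ T cells. Cd74, the invariant chain, fills the peptide groove of new class II molecules, and the H2-DM heterodimer later trades its remnant for antigenic peptides. Ciita is a coactivator that binds no DNA itself and is recruited to factors sitting on the conserved X and Y boxes of class II promoters. It is induced by interferon gamma and present constitutively in dendritic cells and B cells. Langerhans cells are the class II bearing cells of the epidermis, and Cd207 (langerin) is the lectin that builds their Birbeck granules, although some dermal dendritic cells carry it too. Cd80 and Cd86 on antigen-presenting cells engage Cd28 and Ctla4 on T cells. Mice of the H-2b haplotype, to which both parental strains belong, express no I-E alpha chain. H2-Ea was not detected on any of the 6 arrays, with signals of 68.1 to 76.2.

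Promoters of the class II genes are shown because the class II levels below ran in parallel across arrays. RefSeq promoters (GRCm38.p6, 250 bases before to 50 after the gene start) were held for 6 of the 10 genes. Both strands were searched for the X box core CTNGNAAC and for the Y box GATTGG, an inverted CCAAT box, with letters chosen with these promoters in view. An X box core followed on the same strand by a Y box, with at most 40 bases between and no overlap, stood in 3 of the 6. Printed 5′ to 3′ with both boxes in capitals, they lie at chr17:34287847-34287927 on the minus strand for H2-Aa, at chr17:34305753-34305832 on the plus strand for H2-Eb1 and at chr17:34153074-34153154 on the plus strand for H2-DMb1.
H2-Aa: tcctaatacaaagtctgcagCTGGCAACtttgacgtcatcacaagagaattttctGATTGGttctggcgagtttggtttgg
H2-Eb1: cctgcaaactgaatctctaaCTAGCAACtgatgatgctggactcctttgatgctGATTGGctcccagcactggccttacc
H2-DMb1: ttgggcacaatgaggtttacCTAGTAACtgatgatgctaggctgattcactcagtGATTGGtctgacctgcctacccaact

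The boxes lay 27 bases apart in H2-Aa and H2-DMb1 and 26 apart in H2-Eb1, and the X box core began at base -84 of H2-Aa, -97 of H2-DMb1 and -94 of H2-Eb1, counted from the gene start. Among 32851 promoters of this length in the table, 13.2% held the X box letters, 16.1% the Y box letters and 0.158% the pair, which is 52 promoters. H2-Ob, a class II gene of the H2-DO modulator, also held the pair, with 24 bases between, while the windows of the class II genes H2-Oa, H2-DMb2 and H2-Eb2 did not. The windows of Cd207 and Cd80 held neither box, and the 2 listed windows of H2-DMa held no X box core and 1 Y box. No match says only that these letters are not in this window.

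The 6 class II and chaperone genes were high in STING-deficient skin and low in WT tumours. H2-Aa (chr17:34282744-34287823, GRCm38.p6), the alpha chain of I-A, gave probe signals of 11183.6 and 8196.6 in SKO DMBA skin and 7228.5 in SKO acetone skin, against 1311.4 and 3981.1 in WT tumours and 4787.5 in WT acetone skin. Signals of H2-Ab1 (chr17:34263227-34269418), its beta chain partner, were 22984.9 and 15271.3 in SKO DMBA skin and 14056.1 in SKO acetone skin, against 2480.8 and 7066.3 in WT tumours and 9387.7 in WT acetone skin. For H2-Eb1 (chr17:34305867-34316674), the I-E beta chain, they were 12968.1 and 7981.6 in SKO DMBA skin and 6999.6 in SKO acetone skin, against 1474.1 and 3426.6 in WT tumours and 4335.3 in WT acetone skin. In all 3 genes every SKO array lay above every WT array, and SKO DMBA skin 1 was the highest and WT tumour 1 the lowest.

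Cd74 (chr18:60803849-60812652), the invariant chain, gave signals of 30456.9 and 21907.3 in SKO DMBA skin and 19073.4 in SKO acetone skin, against 2926.5 and 8154.3 in WT tumours and 11470.8 in WT acetone skin. H2-DMa (chr17:34119693-34139101) gave 3307.2 and 1793.1 in SKO DMBA skin and 1715.9 in SKO acetone skin, against 280.1 and 789.7 in WT tumours and 1440.7 in WT acetone skin. Its partner H2-DMb1 (chr17:34153191-34160229) gave 3030.8 and 1817.9 in SKO DMBA skin and 1638.4 in SKO acetone skin, against 257.6 and 870.7 in WT tumours and 1239.4 in WT acetone skin. These genes for loading and editing ran in the same order of arrays as the chains themselves.

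**Figure D1:**
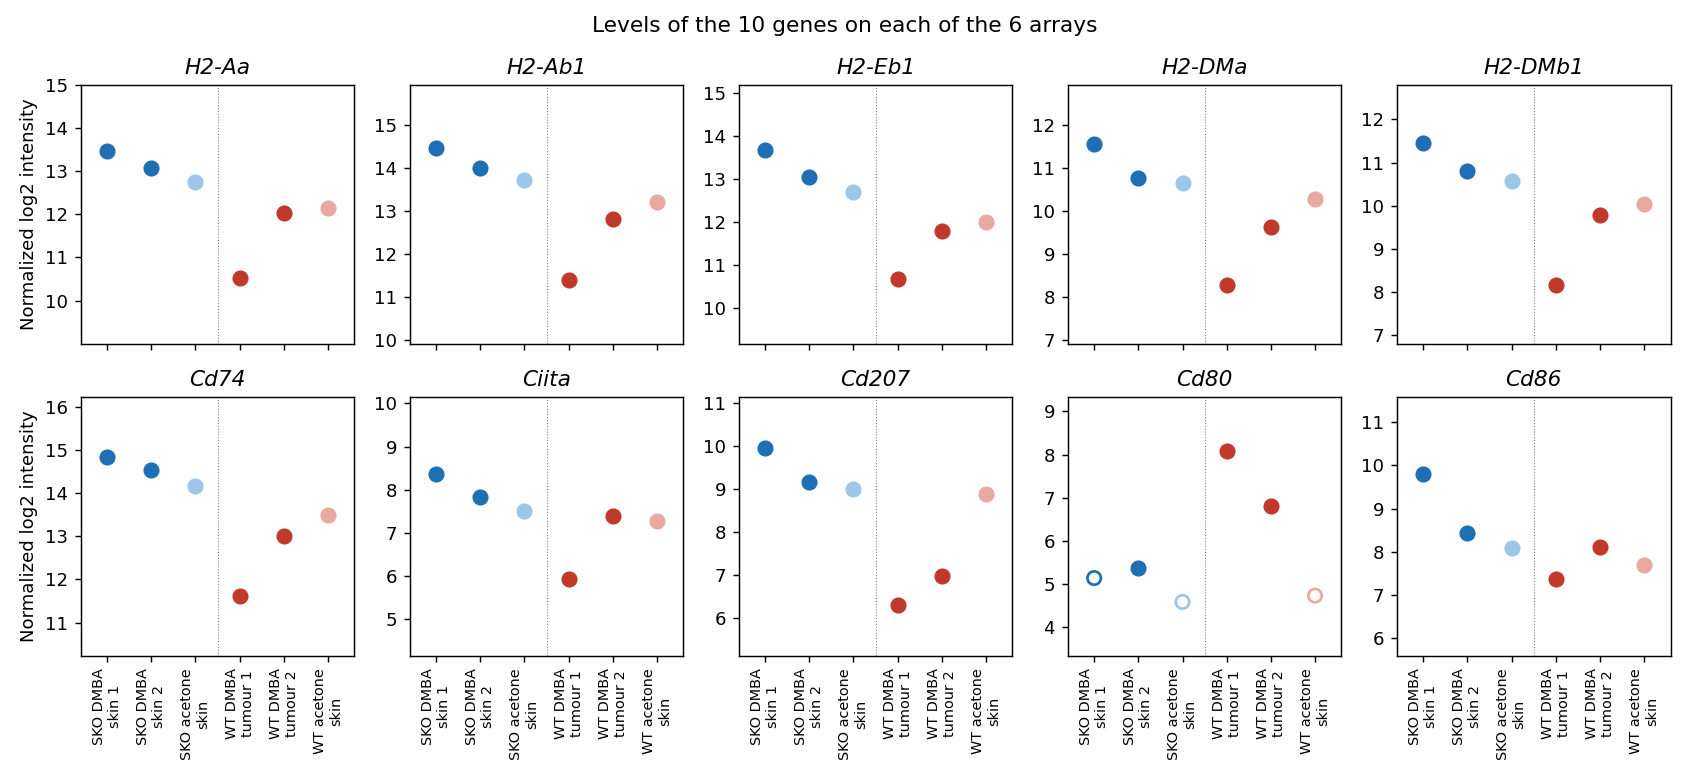
Normalised log2 level of each of the 10 genes (vertical axes) on the 6 arrays, 1 point an array, by group from SKO DMBA skin to WT acetone skin on the horizontal axis; open circles mark arrays on which the probe was not detected. The 6 class II and chaperone genes and Cd207 lie lowest in both WT tumours, and Cd80 lies highest there.

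On the normalised log2 scale the same order held for all 6 genes and for Cd207: SKO DMBA skin 1, SKO DMBA skin 2, SKO acetone skin, WT acetone skin, WT tumour 2, WT tumour 1. The order was read from these genes, so their match to it is no test. Exactly this order was seen in 148 genes, 1.23% of the 11999 tested. For Cd207 it hangs on the processing, since SKO acetone skin minus WT acetone skin was -0.033 without normalization between arrays. Neighbours in the order were often closer than replicates. In the 6 genes the pair of SKO DMBA skin arrays differed by 0.30 to 0.78 and the second of them exceeded SKO acetone skin by 0.13 to 0.38. The WT tumours differed from each other by 1.10 to 1.64, while WT tumour 2 stood at -0.13 to -0.64 relative to WT acetone skin. Cd74 averaged 14.70 ± 0.21 in SKO DMBA skin and 12.31 ± 0.99 in WT tumours (SD, n = 2 each), with 14.17 in SKO acetone skin and 13.51 in WT acetone skin. H2-Aa averaged 13.27 ± 0.28 in SKO DMBA skin and 11.28 ± 1.05 in WT tumours (SD, n = 2 each), with 12.76 in SKO acetone skin and 12.15 in WT acetone skin. The spread of the replicates was thus wider in WT tumours for both genes. All 3 SKO arrays lay above all 3 WT arrays in 8 of the 10 genes, the 6 together with Ciita and Cd207, against 9.29% of all tested genes. The gap between the lowest SKO and the highest WT array was widest for H2-Eb1, at 0.69, and narrowest for Cd207, at 0.10. Both WT tumours lay below the other 4 arrays in 7 of the 10 genes, against 27.2% of all tested genes.

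Ciita (chr16:10480014-10531064) gave signals of 432.7 and 297.0 in SKO DMBA skin and 256.1 in SKO acetone skin, against 96.1 and 211.9 in WT tumours and 236.3 in WT acetone skin. The transactivator thus followed the class II genes in SKO skin and in WT tumour 1, but WT tumour 2 was near WT acetone skin. Relative to WT acetone skin its log2 difference was 1.10 and 0.55 in SKO DMBA skin, 0.24 in SKO acetone skin, -1.35 in WT tumour 1 and 0.12 in WT tumour 2. In WT tumour 1 the detection p of Ciita was 0.006, close to the limit of detection.

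Cd207 (chr6:83671207-83677857) gave signals of 1157.2 and 652.5 in SKO DMBA skin and 592.9 in SKO acetone skin, against 108.1 and 173.1 in WT tumours and 597.6 in WT acetone skin. The lectin was low in both WT tumours and nearly equal in the acetone skins of both genotypes. Its normalised log2 level averaged 9.56 ± 0.56 in SKO DMBA skin and 6.65 ± 0.48 in WT tumours (SD, n = 2 each), with single arrays at 8.99 in SKO acetone skin and 8.89 in WT acetone skin. In WT tumour 2 the class II mean, over H2-Aa, H2-Ab1, H2-Eb1 and Cd74, stood at -0.30 relative to WT acetone skin, where Cd207 stood at -1.90. In WT tumour 1 the class II mean lay at -1.65 and Cd207 at -2.57. In SKO DMBA skin the class II mean lay at 1.40 and 0.95 above WT acetone skin, and Cd207 at 1.07 and 0.27. Cd207 had the lower difference of the pair on all 5 arrays set against WT acetone skin, by -0.33 to -1.60, and these 5 differences share that 1 array. The difference between Cd207 and class II was not tested.

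**Figure D2:**
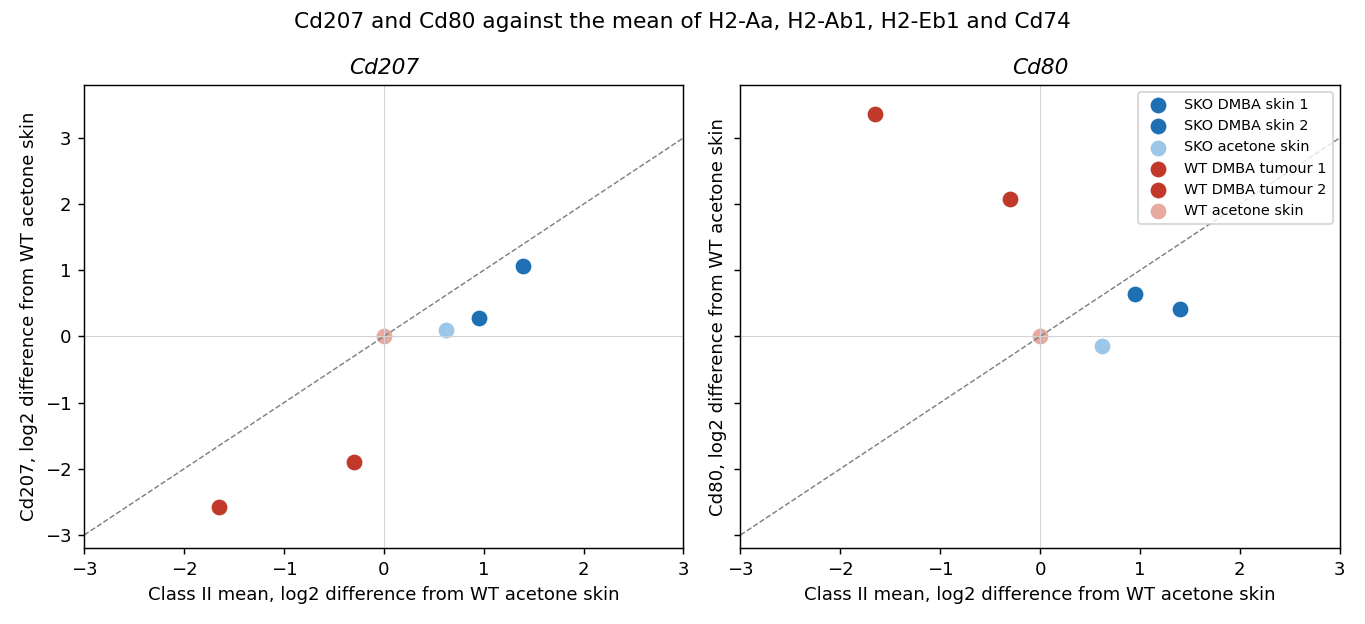
Log2 difference from WT acetone skin of Cd207 and Cd80 (vertical axes) against that of the mean of H2-Aa, H2-Ab1, H2-Eb1 and Cd74 (horizontal axes), 1 point an array with WT acetone skin at the origin; the dashed line marks equal differences. Cd207 lies below the line on the other 5 arrays, and Cd80 lies far above it in both WT tumours. Cd80 was not detected in WT acetone skin, so its plotted differences are measured values against background.

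Cd80 (chr16:38457430-38495958) ran the other way. Its signals were 94.1 and 101.1 in SKO DMBA skin and 82.3 in SKO acetone skin, against 246.9 and 159.7 in WT tumours and 79.6 in WT acetone skin. The probe was detected on 3 of 6 arrays, in both WT tumours and in SKO DMBA skin 2, so elsewhere it gives a bound and no level. Both WT tumours lay above the other 4 arrays, as they did in 26.1% of all tested genes, and Cd80 was the 1 gene of the 10 that did so. The mean of the WT tumours was at least 5.11-fold above WT acetone skin, taking the lowest detected signal of that array as its limit.

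Cd86 (chr16:36568956-36666158) gave signals of 1045.3 and 421.2 in SKO DMBA skin and 345.5 in SKO acetone skin, against 167.4 and 313.7 in WT tumours and 298.6 in WT acetone skin. SKO DMBA skin 1 stood high, at 9.79 on the log2 scale, and the other 5 arrays spanned 7.38 in WT tumour 1 to 8.44 in SKO DMBA skin 2. SKO DMBA skin 1 exceeded SKO DMBA skin 2 by 1.36 on the log2 scale, the widest gap between these arrays among the 10 genes. Over the 6 arrays Pearson's r with the class II mean was 0.81 for Cd86, 0.94 for Cd207 and 0.97 for Ciita. These describe 6 arrays in 4 groups, with WT tumour 1 lowest and SKO DMBA skin 1 highest for every gene named, and no test was made.

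SKO DMBA skin set against WT tumours compares the DMBA-painted tissues of the genotypes. Here 9 of the 10 genes were higher in SKO DMBA skin by 2-fold or more, against 14.7% of all tested genes, and Cd80 was lower. With limma none of the 11999 genes passed a Benjamini-Hochberg adjusted p under 0.05, which is 0%, so no gene of the 10 did. At an unadjusted p under 0.05, 2051 genes were higher, 17.1%, and 7 of the 10 were among them. Likewise 1489 genes were lower, 12.4%, with Cd80 as the 1 gene of the 10.

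The widest of these differences was that of Cd207, with a log2 difference of 2.90 (SE 0.40), 7.49-fold, and an adjusted p of 0.0727 by limma. Cd74 differed by 2.38 (SE 0.52), 5.21-fold, with an adjusted p of 0.0964. The other class II and DM genes differed by 2.00 to 2.20, with limma adjusted p-values of 0.0982 to 0.126. Without WT tumour 1 these stood at 1.25 to 1.56, Cd74 at 1.69, Cd207 at 2.57, Ciita at 0.71, Cd86 at 1.01 and Cd80 at -1.56. Without WT tumour 2 they stood at 2.67 to 2.97, Cd74 at 3.08, Cd207 at 3.24, Ciita at 2.18, Cd86 at 1.74 and Cd80 at -2.84. Over both tumours, Ciita and Cd86 gave smaller differences, 1.44 (SE 0.56) and 1.37 (SE 0.55), with adjusted p-values of 0.179 and 0.186. Cd80 gave -2.20 (SE 0.48) with an adjusted p of 0.0964, and the measured mean of SKO DMBA skin holds 1 undetected array. The median over the 10 genes was 2.11, against 0.02 over all tested genes.

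**Figure D3:**
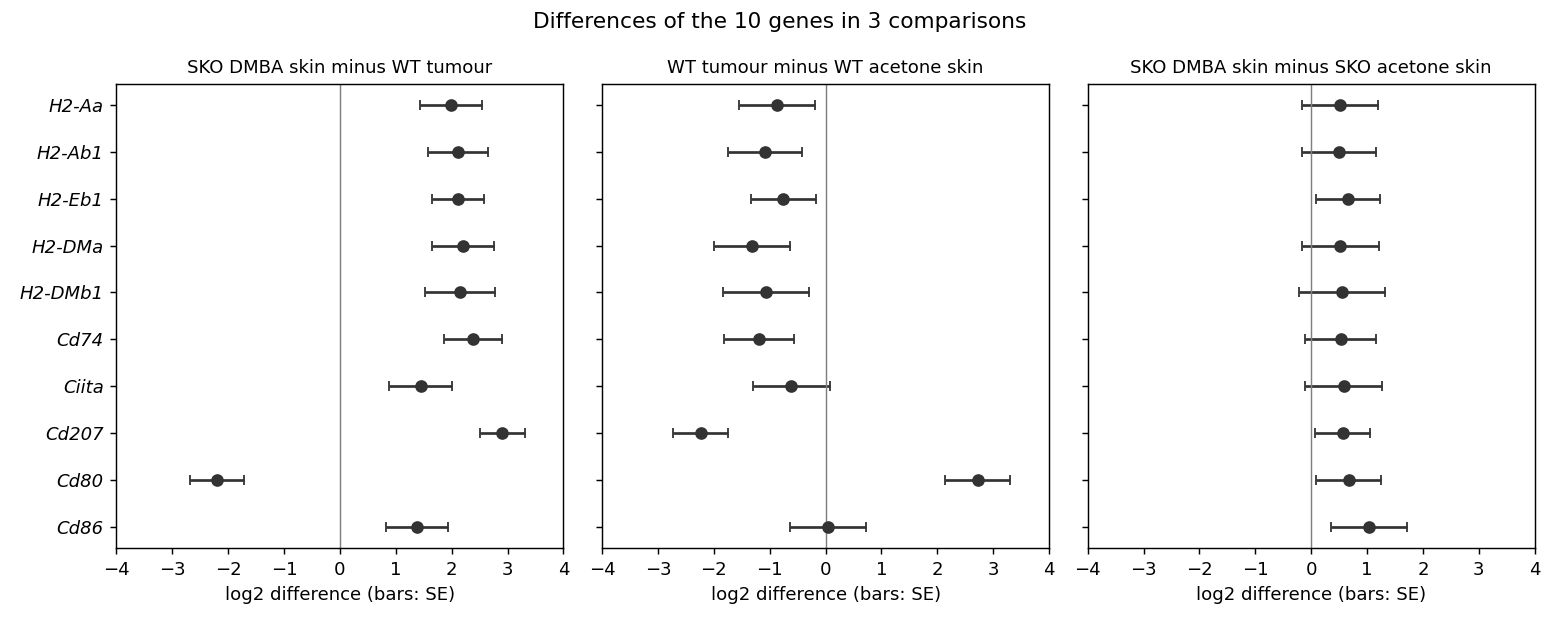
Log2 differences of the 10 genes in the comparisons of the 4 groups, with limma's standard errors where a test was possible. Cd207 has the highest difference between SKO DMBA skin and WT tumours, 2.90, and Cd80 is the only negative one there, at -2.20. Cd80 was undetected in both acetone skins, so its other values are set against background.

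In WT mice the tumours were set against acetone skin to ask how DMBA tumours differ from solvent-painted skin. Cd207 had a log2 difference of -2.24 (SE 0.49), 4.71-fold lower in WT tumours, with an adjusted p of 0.148 by limma. Cd80 was at least 5.11-fold higher in WT tumours, with an adjusted p of 0.146 from the fit to its measured values. The 6 class II and chaperone genes had differences of -1.32 for H2-DMa to -0.76 for H2-Eb1, with SEs of 0.58 to 0.76 and adjusted p-values of 0.330 to 0.489. Ciita gave -0.62 (SE 0.69) and Cd86 0.04 (SE 0.68).

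In that comparison 5 of the 10 genes were lower by 2-fold or more, H2-Ab1, H2-DMa, H2-DMb1, Cd74 and Cd207, against 14.4% of all tested genes. No gene passed the adjusted p of limma, which is 0%. At an unadjusted p under 0.05, 1501 genes were lower in WT tumours, 12.5%, with Cd207 as the 1 gene of the 10, and 1043 were higher, 8.69%, with Cd80 as the 1 gene. The class II values rest on WT tumour 1: without it their differences were -0.13 to -0.64, 1 of the 10 genes was lower by 2-fold or more, and Ciita stood at 0.12. Without WT tumour 2 they were -1.31 to -1.99, and 8 of the 10 genes were lower by 2-fold or more. The share of all tested genes at 2-fold is not given for these 2 fits. Cd207 stood at -1.90 without WT tumour 1 and at -2.57 without WT tumour 2.

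In STING-deficient mice, SKO DMBA skin against SKO acetone skin compares DMBA-painted skin, not tumours, with solvent-painted skin. The 9 genes other than Cd80 had positive differences, from 0.50 for H2-Ab1 to 1.04 for Cd86, with limma adjusted p-values of 0.776 to 0.910. Cd80 was undetected in SKO acetone skin and on 1 of the SKO DMBA skin arrays, so no difference is given. The class II and chaperone genes lay between 0.50 and 0.66, and Cd207 at 0.56 (SE 0.49). Only Cd86 was higher by 2-fold or more, against 4.81% of all tested genes, and without SKO DMBA skin 1 no gene of the 10 was. None of the tested genes passed the adjusted p in this comparison by limma, 0%.

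The response in SKO mice minus that in WT mice was 2.80 (SE 0.70) for Cd207, with a limma adjusted p of 0.534. It was 1.39 to 1.84 for the class II and chaperone genes, 1.20 for Ciita and 1.00 for Cd86, with adjusted p-values of 0.643 to 0.728. For Cd80 none is given, since neither acetone array detected it. No gene on the array passed the adjusted p here, 0%. The responses share no array, but that of the WT mice is measured in tumours and that of the SKO mice in skin.

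Between the acetone skins, 1 array each and so without a test, SKO exceeded WT by 0.36 to 0.69 in the class II and chaperone genes. The log2 difference was 0.37 for Cd86, 0.24 for Ciita and 0.10 for Cd207. Cd80 was not detected on either array. No gene of the 10 was higher by 2-fold or more, against 2.31% of all tested genes.

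The 10 genes have 20 annotated probes, and the 10 that were not used tell how far a result hangs on 1 probe. Of these, 8 were higher in SKO DMBA skin than in WT tumours and 2 were lower. The second Cd207 probe gave 3.08 there and -2.25 between WT tumours and WT acetone skin, close to the values of the first probe. It was undetected in WT tumour 1, at a signal of 69.6, so both differences hold a background value. In WT tumour 2, where it was detected, it stood at -1.59 relative to WT acetone skin. Between the acetone skins this probe gave -0.10, so its SKO arrays did not all lie above its WT arrays. Of the 20 probes 12 had every SKO array above every WT array. The other probes of H2-Ab1, H2-DMa and Cd74 gave 1.64 to 2.29. Between SKO DMBA skin and SKO acetone skin, 1 unused probe of H2-Ab1 gave -0.27 and 1 of Cd74 -0.14, opposite in sign to the probes used. In that H2-Ab1 probe SKO DMBA skin 1 stood at 12.35, below SKO DMBA skin 2 at 13.45 and level with WT acetone skin at 12.36. Its SKO arrays thus did not all lie above its WT arrays. The second Cd80 probe was detected on 1 array, SKO DMBA skin 2, and gave -0.28, so the Cd80 difference rests on 1 probe. Of the remaining Cd86 probes 1 gave 1.36 and the other -0.02.

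Other genes of the pathway come from lists written with earlier results of these data known. Of 18 class II machinery genes 16 were tested, and 14 of them were higher in SKO DMBA skin than in WT tumours, with a median of 0.51 and 6 at 2-fold or more. H2-DMb2, another DM beta chain, differed by 2.03, and H2-Ob, undetected in both WT tumours, was at least 2.11-fold higher in SKO DMBA skin. Nfyb, a subunit of the Y box factor NF-Y, differed by -0.22, and Creb1, a factor that binds in the X box region, by -0.78. In the interferon gamma list 18 of 21 tested genes were higher there, with a median of 1.38 and 13 at 2-fold or more. The immunity-related GTPase gene Irgm2 gave 2.81 and the guanylate-binding protein gene Gbp2 2.74. None of the listed genes passed limma's adjusted p.

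In WT tumour 2 the interferon gamma list stood above WT acetone skin and the class II machinery list beside it. Relative to WT acetone skin, the list median of the interferon gamma genes was 1.18 and 0.92 in SKO DMBA skin, 0.14 in SKO acetone skin, -0.81 in WT tumour 1 and 0.53 in WT tumour 2. For the class II machinery it was 0.53 and 0.38 in SKO DMBA skin, 0.10 in SKO acetone skin, -0.27 in WT tumour 1 and -0.03 in WT tumour 2. Of these 16 genes 7 were undetected in WT tumour 1 and 3 in WT acetone skin. With undetected signals at each array's lowest detected level, the class II machinery median in WT tumour 1 was 0.04. Between SKO DMBA skin and SKO acetone skin, 18 of 21 interferon gamma genes were higher, with a median of 0.79. The widest was the T cell chemokine gene Cxcl9, at 4.16. Its log2 level was also high in WT tumour 2, at 10.68, against 7.90 in both WT tumour 1 and WT acetone skin.

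Macrophage and pan-leukocyte markers differed along with the class II genes, while Langerhans and dendritic cell markers were mixed. The part of these markers in the results was not tested. In bulk tissue fewer cells of a type and less RNA per cell cannot be told apart. Of the Langerhans list, Epcam and Ly75 were detected on no array, so Cd207 was the defining marker that was measured. Of its 12 tested genes 7 were higher in SKO DMBA skin than in WT tumours and 5 lower, with a median of 1.09. Csf1r, the receptor that Langerhans cells need, differed by 2.25 and Ltc4s by 2.05, while Cd24a differed by -2.34 and Tyro3 by -1.43. The list's normalised intensities, summed on the linear scale, were 18322.8 and 18301 in SKO DMBA skin and 18463 in SKO acetone skin. They were 9829 and 14016.9 in WT tumours and 17724.9 in WT acetone skin. Such a sum is weighted to the most abundant genes, in SKO DMBA skin 1 Tgfbr2 at 12.68 and Axl at 12.10 on the log2 scale.

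In the dendritic cell list 13 of 15 tested genes were higher in SKO DMBA skin than in WT tumours, with a median of 1.10, although 8 of the 15 were undetected in WT tumour 1. The lectins Clec10a and Mgl2 differed by 4.50 and 4.19, but with SEs of 1.63 and 1.58, and both were undetected on 1 array. Xcr1, the receptor of cross-presenting dendritic cells, was detected only in the 2 WT tumours and so was tested only through them. Their mean was at least 2.07-fold above SKO DMBA skin. WT tumour 1 stood at 6.82 and WT tumour 2 at 5.49, close to its array's lowest detected level of 5.36. Fscn1, the actin bundler of mature dendritic cells, differed by -1.34. The defining genes Flt3, Zbtb46 and Clec9a were detected on no array and Itgax on 1. The summed signal of the list was 11106.3 and 10423.3 in SKO DMBA skin and 7977 in SKO acetone skin, against 2697 and 6240 in WT tumours and 6883 in WT acetone skin. Different genes weigh most in this sum on different arrays. In WT tumour 1 these were Fscn1 at 10.26 and Sirpa at 9.60 on the log2 scale. In SKO DMBA skin 1 they were Sirpa at 11.71 and Clec10a at 11.60.

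All 11 macrophage genes were higher in SKO DMBA skin than in WT tumours, with a median of 2.48, beside 2.00 to 2.38 for the 6 class II and chaperone genes. Their summed signal was 30147.9 and 20403.8 in SKO DMBA skin and 15830.4 in SKO acetone skin, against 2306 and 9297 in WT tumours and 12354.6 in WT acetone skin. The 5 pan-leukocyte genes were also all higher, with a median of 1.66, and summed to 22191.8 and 13181.5 in SKO DMBA skin and 9538 in SKO acetone skin, against 3067.3 and 9732 in WT tumours and 9659 in WT acetone skin. Of the B cell genes on the array Ms4a1, Pax5 and Cr2 were detected on no array. The 3 tested genes had a median difference of 0.93 and a summed normalised intensity of at most 367.5. The keratinocyte list had a median of -0.55, and its members summed to 147628 and 164469 in SKO DMBA skin and 139285 in SKO acetone skin, against 191653 and 195141 in WT tumours and 151754 in WT acetone skin.

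**Figure D4:**
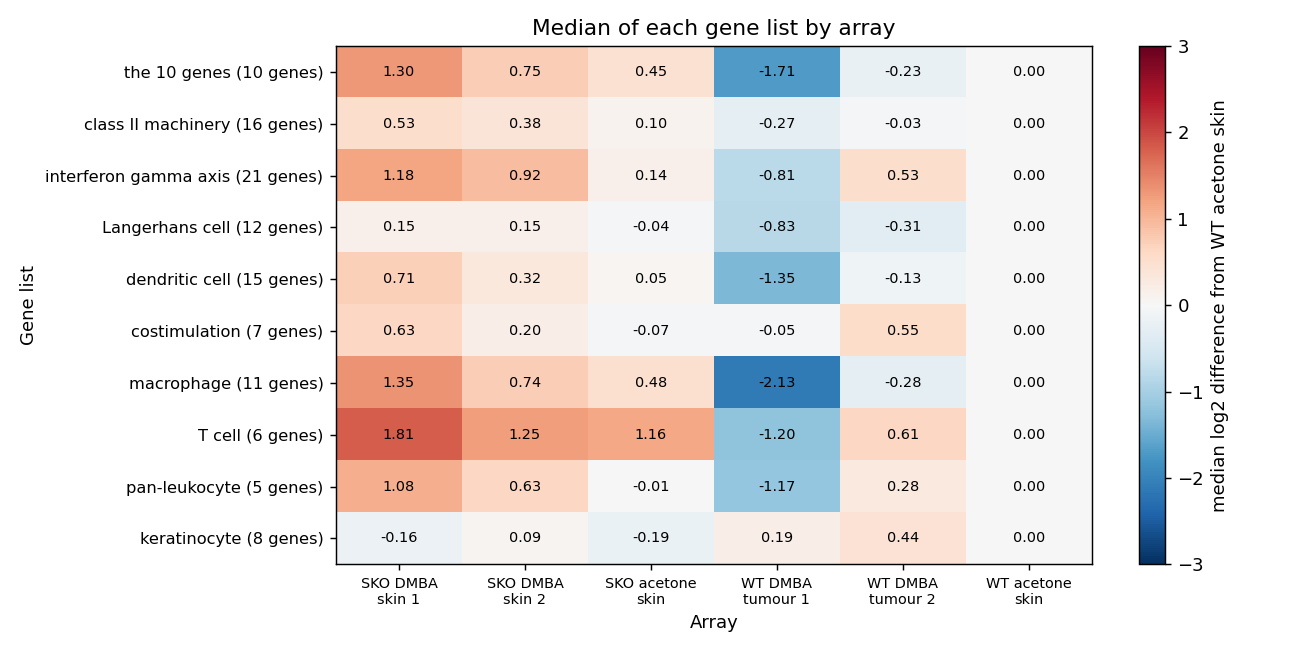
Median log2 difference from WT acetone skin of each marker list (rows) on the 6 arrays (columns), with the value printed in each cell and WT acetone skin at 0 by construction. Macrophage genes were at 1.35 and 0.74 in SKO DMBA skin and at -2.13 and -0.28 in WT tumours, the same order of arrays as the class II genes. Undetected signals enter these medians as measured.

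Of the other costimulation genes 7 of 14 were tested, and 3 were higher and 4 lower in SKO DMBA skin than in WT tumours, with a median of -0.22. Cd276 (B7-H3) had the lowest value, -1.29, and its log2 level was also higher in WT tumours than in WT acetone skin, by 1.12. The checkpoint ligand gene Cd274 gave 1.00 and the costimulatory receptor gene Cd40 0.87. Cd28, the T cell partner of Cd80 and Cd86, was detected on no array.

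The genes whose levels were most like Cd207 over the 6 arrays, among 11989 tested genes outside the 10, were Pald1, Irak3, Eno2, Marveld3 and Rps27l, with Pearson's r of 0.998 down to 0.993. Most like the class II mean were Gab3, Lyl1, C1qc, Alox5ap and Zfp658, with r of 0.998 down to 0.995. C1qc encodes a chain of complement C1q and is a macrophage marker. Its normalised log2 level was 11.90 and 11.25 in SKO DMBA skin and 10.79 in SKO acetone skin, against 8.04 and 9.96 in WT tumours and 10.24 in WT acetone skin. With 6 arrays many genes reach such values, and no p is attached to them.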

How the data were processed

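The 6 samples were measured on one-colour Illumina BeadChips per the labels, which give Ambion MessageAmp as the kit for the biotinylated cRNA. The deposited table holds, per the file headers, a linear intensity and a detection p-value for 45281 probes. The detection values rise with the signal (Spearman at least 0.975), so 1 minus the value was used. The deposited matrix, used as an alternative, holds log2 values of quantile-normalised signals minus each probe's median, found by comparison with the intensities (mean absolute difference at most 0.00125); its column medians were -0.00172 and -0.00292 for SKO DMBA skin, -0.000698 for SKO acetone skin, 0.0122 and 6.82e-05 for WT tumours and -0.00263 for WT acetone skin. The scanner software is not given in the sources used.

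Intensities were corrected from the detection p, quantile-normalised and log2-transformed by limma's neqc (limma 3.58.1, R 4.3.3) at an offset of 16. In the platform annotation 34885 probes have 1 gene, 18 have several and 10378 are unnamed, and 34807 symbols were updated through RefSeq GRCm38.p6. Each gene took its probe with the highest mean signal. Genes detected (p under 0.01) on 1 array or more were fitted with lmFit and eBayes on 4 group means (2 residual and 2.44 prior degrees of freedom), so single acetone arrays are taken to vary as the pairs do. The p-values were adjusted over all tested genes, and steps were tested on simulated data. The 10 genes, the 12 lists and the tests were chosen with earlier results of these data known. Besides the 10 genes, the text names at most the 2 highest and 2 lowest genes of a list in a comparison and the 5 genes most like each pattern; Csf1r stands in 2 lists. Cd28, H2-Ea, Il34, Tgfbr2, Axl and the undetected markers were named after their values were seen.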

Additional observations from a re-analysis of the deposited data

Results flagged for a closer look

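In 7 of the 10 genes both SKO DMBA skin arrays lay above SKO acetone skin while both WT tumours lay below WT acetone skin, and this opposite sign on every array is why they are listed. The share of all tested genes with this pattern was not counted, so the 7 genes do not show that it is unusual. The count holds for the probe used per gene: 1 unused probe each of H2-Ab1, H2-DMa and Cd74 had an SKO DMBA skin array below SKO acetone skin. The log2 response in SKO mice minus that in WT mice was 2.80 for Cd207, 1.84 for H2-DMa, 1.72 for Cd74, 1.62 for H2-DMb1, 1.59 for H2-Ab1, 1.42 for H2-Eb1 and 1.39 for H2-Aa. The interaction contrast of limma tested each difference, and none passed, with adjusted p-values of 0.534 for Cd207 and 0.643 to 0.667 for the others. For Cd207 the arrays gave 0.96 and 0.17 in SKO DMBA skin against SKO acetone skin, and -2.57 and -1.90 in WT tumours against WT acetone skin. For H2-Aa they gave 0.72 and 0.32 in SKO DMBA skin and -1.62 and -0.13 in WT tumours, so WT tumour 2 was close to its acetone skin. Each genotype has a single acetone array behind these values, and the WT response is one of tumours.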

How the results depend on the processing

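In SKO DMBA skin minus WT tumours, all 10 genes kept their sign under every alternative that gave a value, with Cd207 between 2.36 and 3.33 and Cd80 between -2.84 and -1.32. The count of all genes called there, 0 at first, was 7 without background correction, 7 in the deposited matrix, 135 with detection required on all 6 arrays and 429 with undetected signals raised to the array's lowest detected signal, an alternative chosen after seeing the data. In these last settings 1 of the 10 genes was called, Cd207, at limma adjusted p-values of 0.0475 and 0.0372; over all alternatives its adjusted p ran from 0.00417 to 0.537. Raising undetected signals also gave 62 called genes for WT tumours minus WT acetone skin. Requiring detection on all 6 arrays removes Cd80, which leaves 0 of the 10 genes lower by 2-fold or more in SKO DMBA skin than WT tumours, 0 in the difference of responses and 0 higher in WT tumours than WT acetone skin. Fitting only the groups compared called 182 genes between SKO DMBA skin and SKO acetone skin. Without background correction and in the deposited matrix 0 genes of the 10 were higher by 2-fold or more there.

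Signs turned for values near 0. Cd86 in WT tumours minus WT acetone skin, 0.04 at first, was -0.40 with equal array medians, -0.51 without normalization between arrays and ran from -0.32 to 0.41 when each replicate was left out; the scalings set the median of all genes at -0.27 and -0.39. Ciita there ran from -1.35 to 0.12 when each replicate was left out, 0.12 being without WT tumour 1. Between the acetone skins Cd207 was -0.033 without normalization, and Cd80 was 0.15 with undetected signals raised.

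Leaving out each replicate in turn gave ranges. For WT tumours minus WT acetone skin, 0 to 2811 genes were called (527 without WT tumour 1), 0 to 7 of the 10 were called and 1 to 8 were lower by 2-fold or more. For SKO DMBA skin minus SKO acetone skin 0 to 182 genes were called and 0 to 1 of the 10 were higher by 2-fold or more. For SKO DMBA skin minus WT tumours 0 to 3715 genes were called (927 without WT tumour 1), and 0 to 9 of the 10 (3 without WT tumour 1). For the difference of responses 0 to 1225 genes were called (129 without WT tumour 1), 0 to 5 of the 10 were called and 3 to 9 were higher by 2-fold or more. A group left with 1 array was assumed to vary like the others. The causes of these changes were not tested. No paired analysis was possible because the labels give no replicate numbers shared between groups. Probes under the detection limit, as for Cd80 on 3 arrays, give bounds only.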

Other observations

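T cell genes followed another order of arrays than class II. Relative to WT acetone skin, the median over 6 T cell genes was 1.81 and 1.25 in SKO DMBA skin, 1.16 in SKO acetone skin, -1.20 in WT tumour 1 and 0.61 in WT tumour 2. Between SKO DMBA skin and WT tumours 5 of the 6 were higher, with a median of 1.79, and Cd3g, a chain of the T cell receptor complex, differed by 2.12. Cd4 and Cd8a were detected on no array.

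Il34, which keratinocytes make as a ligand of Csf1r, differed by 1.21 between SKO DMBA skin and WT tumours and by -1.28 between WT tumours and WT acetone skin. Cxcl10, a chemokine induced by interferons, was at least 3.75-fold higher in SKO DMBA skin than in SKO acetone skin, where it was undetected. The rise was not confined to SKO mice. Cxcl10 stood at 7.23 on the log2 scale in WT tumour 2, beside 6.96 and 7.34 in SKO DMBA skin. It was undetected in WT tumour 1 and WT acetone skin. Krt6a, a keratin of wounded and hyperproliferative epidermis, had the lowest difference of the keratinocyte list between SKO DMBA skin and WT tumours, -4.53.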
